A study of Mus musculus with 9 samples.

Results

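Monocyte identity genes were examined here as a set of 9 transcripts, Ly6c2, Fcgr1, Mpeg1, F13a1, Ms4a6c, Ms4a6b, Ly86, Fn1 and Mrc1, in mouse acute promyelocytic leukemia (APL) cells. The members were taken by gene symbol, and all 9 were found among the 24364 genes of the deposited tables. The leukemia came from hMRP8-PML/RARα transgenic mice, in which a human MRP8 promoter drives the PML/RARα fusion in myeloid cells, and was marked with green fluorescent protein (GFP) by the retroviral vector MigR1. Syngeneic FVB/NJ mice carrying the leukemia received all-trans retinoic acid (ATRA, 10 mg/kg) or arsenic trioxide (ATO, 4 mg/kg) by daily intraperitoneal injection for 6 days, or no drug, and GFP+ cells were then sorted from bone marrow for polyA RNA sequencing. Whether the controls received the solvent is not given in the sources used here. Each of the control, ATRA and ATO groups held 3 libraries, all from the same kind of transplanted leukemia. The labels do not tie libraries to animals, so the spread behind each p-value is that between libraries and may be technical.

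Monocytes arise in the bone marrow from precursors that they share with granulocytes. They carry surface receptors that bind antibody and microbial products, they take up and destroy microbes, and they enter tissues, where they can mature into macrophages. Several genes in the set are shared with other cells: Ly6C protein is also found on other myeloid cells of mouse marrow, Ms4a6b is expressed in T cells, F13a1 in megakaryocytes, Fn1 in stromal cells, and Mrc1 in tissue macrophages. The APL cell itself is a leukemic promyelocyte, a granulocyte precursor rich in azurophil granule proteins.

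The libraries held 12192491 to 25511738 reads on genes, and 13757 to 15397 genes with at least 1 read. Values below are scaled reads, that is, reads recovered from the deposited normalized values and divided by a size factor that puts all 9 libraries on a common scale. Granule transcripts of the labelled cell type were high, and Mpo, the myeloperoxidase of azurophil granules, stood at 49869 to 288247 scaled reads in every library. ATRA 3 stood apart in interferon-induced genes, whose summed level over the 17 tested was 27045 scaled reads, against 5866 to 7210 in the other 8 libraries. It held the highest value of 15 of the 17. In such a sum the abundant genes weigh most. Gene by gene, the median log2 change of the 17 from controls was -1.62 with ATO and 0.47 with ATRA. Dependence of a library's values on transcript length also differed, from a log2 slope of 0.27 per doubling of length in control 2 to -0.37 in ATO 3.

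With ATRA, 3 of the 9 monocyte genes were lower than in controls and 0 were higher, and with ATO 7 were lower and 0 higher. A gene was called at a limma adjusted p (Benjamini-Hochberg over all 12101 tested genes) under 0.05 and a fold change over 1.5. Over all tested genes, 4.26% were called lower and 1.34% higher with ATRA, and 8.55% lower and 6.13% higher with ATO. Mpeg1, Ly86 and Mrc1 passed with ATRA, and Mpeg1, F13a1, Ms4a6c, Ms4a6b, Ly86, Fn1 and Mrc1 with ATO. The median log2 change of the members was -1.41 with ATRA and -1.53 with ATO, against -0.01 with either drug over all tested genes. All 3 treated libraries lay below all 3 controls for 4 of the 9 genes with ATRA and for 7 of 9 with ATO, against 12.5% and 16.4% of all tested genes. Both comparisons use the same 3 controls and are therefore not independent of each other. In bulk samples of this kind, fewer cells of a type and less RNA per cell cannot be told apart.

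**Figure D1:**
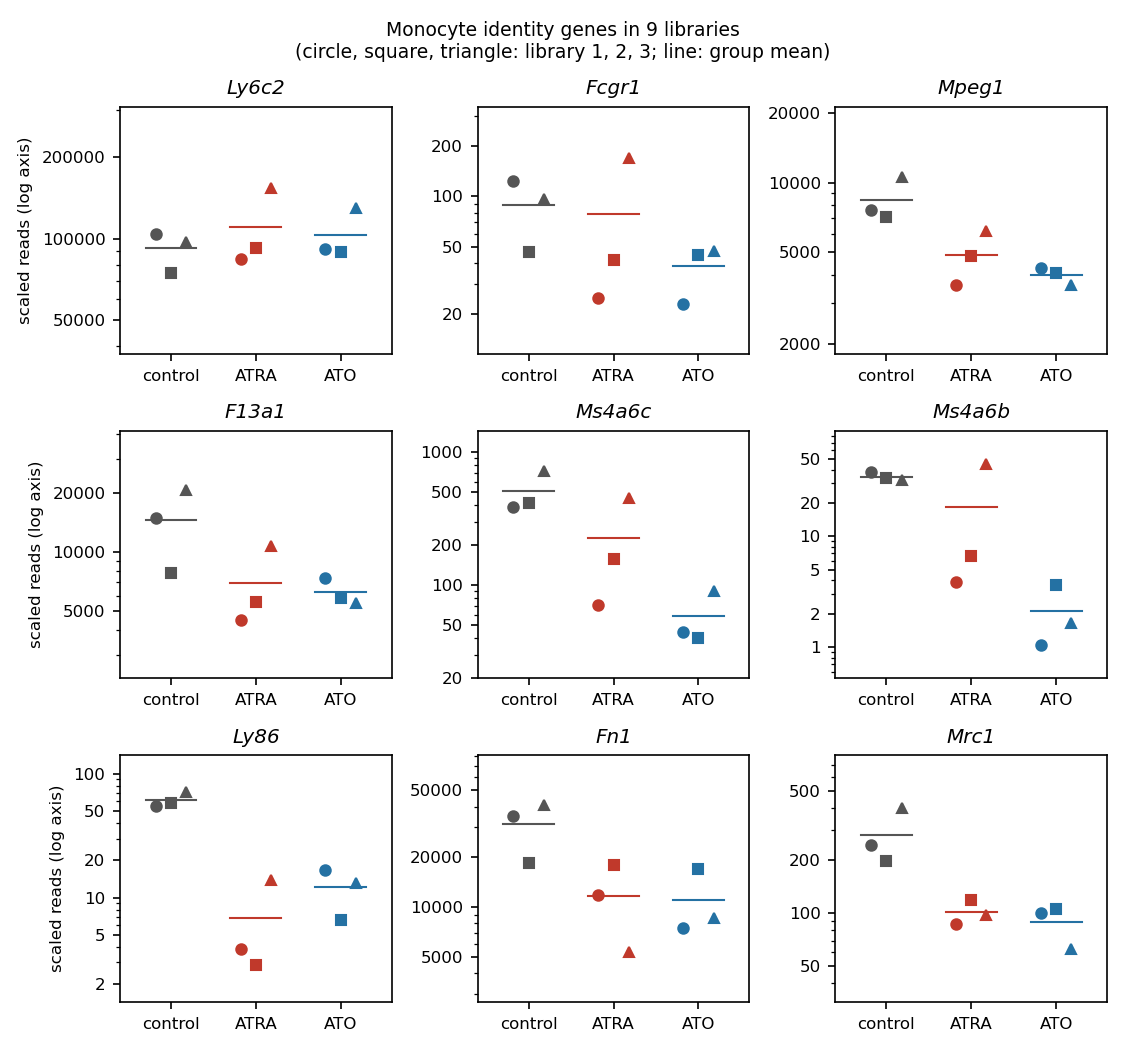
Scaled reads of the 9 monocyte identity genes in every library, on log axes, with 1 panel per gene, a marker for each library and a line at each group mean. Mpeg1, Ly86, Fn1 and Mrc1 lie below all controls in all 6 treated libraries, whereas the Ly6c2 groups overlap and ATRA 3 is high for Fcgr1, Ms4a6c and Ms4a6b.

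The members differed widely in level. Per kilobase of transcript, the control mean of Ly6c2 was 115702 scaled reads, above 99.97% of tested genes with a known length, followed by Fn1 at 3773, F13a1 at 3747 and Mpeg1 at 1951. Fn1 and F13a1 differed by less than the spread between controls. Ms4a6c stood at 276, Ly86 at 61.4, Mrc1 at 52.5, Fcgr1 at 34.4 and Ms4a6b at 8.09, the last above only 6.74% of tested genes. All 9 passed the filter of at least 10 scaled reads in at least 3 libraries, but Ms4a6b did so through its 3 controls and ATRA 3, with no ATO library at 10, and Ly86 through 3 controls, 1 ATRA and 2 ATO libraries. Ms4a6b could thus enter the test only through its controls, and without it 3 of 8 members were lower with ATRA and 6 of 8 with ATO.

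Promoter sequence was shown for the neighbouring genes Ms4a6c and Ms4a6b, whose levels followed each other closely over the libraries. In mm9 they lie on the plus strand of chromosome 19, Ms4a6c at chr19:11543858-11556687 and Ms4a6b at chr19:11591002-11605746, and both are annotated as protein coding. Starts and sequences are those of RefSeq (GRCm38.p6), which held 8 of the 9 members, and were placed in mm9 by exact match. The Ms4a6c stretch, chr19:11543608-11543857, is the 250 bases before the start and lies outside annotated genes. The Ms4a6b stretch, chr19:11592799-11592942, runs from 250 to 107 bases before the RefSeq start, within an intron of a longer annotated transcript, and stops where an annotated exon begins. Capitals mark a match to GAAANNGA, the core of interferon response elements.
Ms4a6c: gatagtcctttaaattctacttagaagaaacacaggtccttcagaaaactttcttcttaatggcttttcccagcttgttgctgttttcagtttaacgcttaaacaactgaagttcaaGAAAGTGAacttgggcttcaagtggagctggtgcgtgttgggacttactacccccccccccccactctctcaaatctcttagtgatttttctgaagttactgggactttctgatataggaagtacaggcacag
Ms4a6b: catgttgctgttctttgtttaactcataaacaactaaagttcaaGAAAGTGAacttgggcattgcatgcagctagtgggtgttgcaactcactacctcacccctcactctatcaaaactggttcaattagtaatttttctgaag
Over the full 250 bases before each start, 149 of 175 aligned positions were identical (85.1%), and the longest run in common was 48 bases. The match lay 133 bases before the start in Ms4a6c and 206 bases before it in Ms4a6b.

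On either strand, GAAANNGA was found in 5 of the 10 promoter windows of the 8 members with a window (1 each of F13a1, Ly86, Mrc1, Ms4a6b and Ms4a6c; F13a1 and Ly6c2 have 2 windows each), against 20.9% of all 32817 windows of the same length. Each window spans 250 bases before to 50 after a start. The windows of Ms4a6b and Ms4a6c share sequence around the match, so their matches are not independent. GAGGAAGT, a site of the myeloid factor PU.1, was found in 3 of the 10 (1 of F13a1 and both of Ly6c2, which overlap), against 3.20% of all windows. GGAANNGAA, a composite ETS-IRF site that can overlap both motifs before it, was found in 1 of the 10, that of Ms4a6c, against 8.25%. No member's window held TGANTCA (AP-1), TTGCNNAA (C/EBP) or AGGTCA (the motif bound by retinoid receptors), which were present in 7.81%, 10.8% and 16.3% of all windows. Examples follow, each with its match in capitals and read along the gene's strand.
Ly6c2, GAGGAAGT, 142 bases before a start: atgttggccctGAGGAAGTaagaaccaaaa
Ly86, GAAANNGA, 204 bases before the start: cctcttcctgtGAAAGCGAgaagtcacctt
F13a1, GAAANNGA, 29 bases before a start: aaagcccttgaGAAAGTGAcaggaaatacg
Mrc1, GAAANNGA on the opposite strand, 24 bases before the start: ttcctctgtccTCCTTTTCagtcaggcagc
Such matches describe the sequence alone.

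Among the surface markers, neither Ly6c2 nor Fcgr1 changed by the test. Ly6c2 (chr15:74938590-74942114 in mm9) encodes Ly6C, the surface protein used to mark classical monocytes in mice. Its scaled reads were 104231, 74593 and 97472 in control mice, 84307, 92277 and 153706 after ATRA, and 91350, 89154 and 130061 after ATO. The groups overlapped, with the highest value in ATRA 3 and the lowest in control 2. The log2 change was 0.22 (SE 0.27, limma adjusted p = 0.696) with ATRA, with a 95% interval of -0.37 to 0.80. With ATO it was 0.16 (SE 0.27, limma adjusted p = 0.692), with an interval of -0.42 to 0.75. Without ATRA 3 the ATRA value was -0.05, so its sign rests on that library. Of the 50-base stretches in the Ly6c2 transcript, 34.1% also occur in another gene, nearly all in Ly6c1, so reads from these stretches are not unique and Ly6c2 and Ly6c1 are uncertain in this respect.

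Fcgr1 (chr3:96086832-96098179) encodes the high-affinity receptor for IgG. Its scaled reads were 123, 46.7 and 97.0 in controls, 24.9, 41.6 and 170 after ATRA, and 22.9, 44.99 and 47.6 after ATO. ATRA 1, ATRA 2, ATO 1 and ATO 2 lay below all controls, ATO 3 lay just above control 2, and ATRA 3 was the highest of the 9 libraries. The log2 change was -0.55 (SE 0.60, limma adjusted p = 0.656) with ATRA and -1.16 (SE 0.60, limma adjusted p = 0.184) with ATO. The intervals ran from -1.84 to 0.75 and from -2.46 to 0.14. With both control 2 and ATRA 3 left out, a choice made after seeing the data, the values were -1.74 (limma adjusted p = 0.0220) and -1.56 (limma adjusted p = 0.0178), and both then passed.

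Mpeg1, which encodes perforin-2, a pore-forming protein of phagocytes that acts on engulfed bacteria, was lower with both drugs (chr19:12535269-12539774). Controls held 7635, 7098 and 10633 scaled reads, ATRA libraries 3610, 4802 and 6187, and ATO libraries 4261, 4045 and 3622. All 6 treated libraries lay below the lowest control, and ATRA 3 was the highest of the 6. Mpeg1 fell 1.75-fold with ATRA (log2 -0.81, SE 0.22, limma adjusted p = 0.0465) and 2.10-fold with ATO (log2 -1.07, SE 0.22, limma adjusted p = 0.00924). The ATRA call is close to the threshold and was lost in 6 of 9 fits that left out 1 library. Without control 3, both calls were lost, at log2 -0.63 (limma adjusted p = 0.315) with ATRA and -0.90 (limma adjusted p = 0.0745) with ATO. With length and GC trends removed, both were also lost, at -0.51 (limma adjusted p = 0.138) and -0.63 (limma adjusted p = 0.0524).

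The secreted proteins F13a1 and Fn1 were abundant in controls and lower with ATO. F13a1 (chr13:36959047-37142113) encodes the catalytic subunit of coagulation factor XIII, the transglutaminase that cross-links fibrin. Its scaled reads were 14971, 7801 and 20805 in controls, 4528, 5540 and 10797 after ATRA, and 7381, 5861 and 5489 after ATO. The ATO libraries lay below all controls, whereas ATRA 3 lay above control 2. F13a1 fell 2.17-fold with ATO (log2 -1.12, SE 0.35), at a limma adjusted p of 0.04995, just inside the threshold. That call was lost in 7 of 9 fits that left out 1 library, and with length and GC trends removed (log2 -0.72, limma adjusted p = 0.193). With ATRA the log2 change was -1.05 (SE 0.35, limma adjusted p = 0.117), and it passed without control 2 (-1.44, limma adjusted p = 0.0192) and without ATRA 3 (-1.42, limma adjusted p = 0.0275).

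Fn1 (chr1:71632094-71699774) encodes fibronectin, a matrix glycoprotein bound by integrins. Controls held 34959, 18391 and 40733 scaled reads, ATRA libraries 11865, 17863 and 5366, and ATO libraries 7464, 16900 and 8648. All treated libraries lay below all controls, although ATRA 2 lay only just below control 2. In Fn1, unlike most members, ATRA 3 was the lowest of the 9 libraries. Fn1 fell 2.88-fold with ATO (log2 -1.53, SE 0.43, limma adjusted p = 0.0347). With ATRA the value was nearly the same, log2 -1.51 (SE 0.43), but its limma adjusted p of 0.0615 missed the threshold. It passed without control 2 (-1.85, limma adjusted p = 0.0273) and without ATRA 2 (-1.89, limma adjusted p = 0.0251). The ATO call was lost without control 1, control 3, ATO 1 or ATO 3, with values of -1.42, -1.30, -1.29 and -1.40, and with length and GC trends removed (-1.17, limma adjusted p = 0.0540). Transcripts of other cell types that express these genes were also lower in treated samples. Summed over 14 stromal and endothelial genes, levels were 1334 to 2054 scaled reads in controls, 493 to 559 after ATRA and 463 to 478 after ATO. Of the 11 tested, 8 fell with ATRA and 9 with ATO, 7 of them under 10 scaled reads in all 6 treated libraries and so tested only through the controls. Kitl, Dcn and Lum were at 0 in all treated libraries. The sum over 12 megakaryocyte genes was 1073 to 1238 in controls, 366 to 539 after ATRA and 455 to 583 after ATO. Of the 9 tested, 4 fell with ATRA and 6 with ATO, 2 of them likewise tested only through the controls. Gp5, called with ATRA, and Ppbp, called with ATO, also needed their controls to enter the test. The cells were sorted for GFP, but the purity of the sort is not given in the sources used here. The part of these transcripts in the F13a1 and Fn1 values was not tested.

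**Figure D2:**
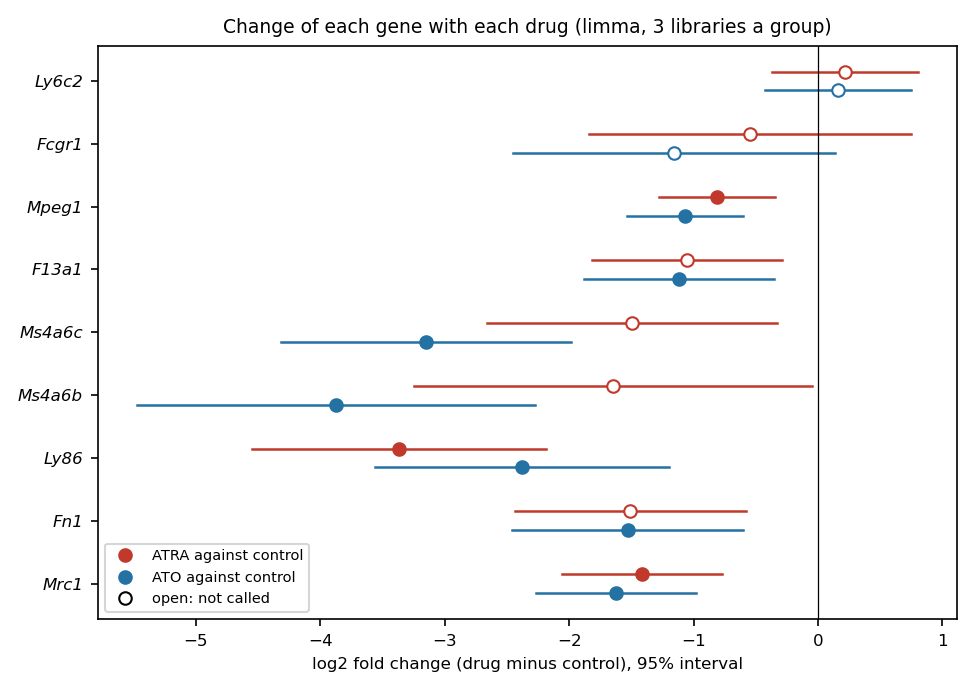
Log2 fold change of each gene with ATRA and with ATO against the 3 controls, with 95% intervals from limma; filled points passed the test. Every interval for Mpeg1, F13a1, Ms4a6c, Ms4a6b, Ly86, Fn1 and Mrc1 lies below 0, and open points among them missed the adjusted threshold.

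The membrane-spanning Ms4a6c and Ms4a6b showed the steepest falls with ATO among the 9 genes. Ms4a6c held 389, 412 and 723 scaled reads in controls, 70.9, 158 and 457 after ATRA, and 44.7, 39.9 and 90.3 after ATO. The ATO libraries lay far below all controls, and ATRA 3 lay within the control range. Ms4a6c fell 8.88-fold with ATO (log2 -3.15, SE 0.54, limma adjusted p = 0.00366), and the call held in all 9 fits that left out 1 library. With ATRA it was -1.50 (SE 0.54, limma adjusted p = 0.148), and without ATRA 3 it was -2.20 and passed (limma adjusted p = 0.0105).

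Ms4a6b was the least abundant member. It held 38.1, 33.5 and 32.3 scaled reads in controls, 3.83, 6.62 and 44.7 after ATRA, and 1.04, 3.63 and 1.64 after ATO. ATRA 3 was the highest of all libraries, 8.54 times the mean of ATRA 1 and ATRA 2, while the ATO libraries were the lowest 3. The ATO values rest on 1, 5 and 1 reads, against 33 to 39 in each control. Ms4a6b fell 14.7-fold with ATO (log2 -3.88, SE 0.74, limma adjusted p = 0.00674), with a 95% interval of -5.48 to -2.28, and this call also held in all 9 fits that left out 1 library. With ATRA it was -1.65 (SE 0.74, limma adjusted p = 0.246), and without ATRA 3 it was -2.66 and passed (limma adjusted p = 0.0185). The transcripts share sequence: 6.80% of the 50-base stretches of Ms4a6c and 3.28% of those of Ms4a6b occur in another gene, mostly in each other, so a small share of their reads is uncertain. T and NK cell genes, summed over 17 genes, stood at 694 to 1083 scaled reads in controls, 209 to 343 after ATRA and 252 to 287 after ATO, with Cd8a and Ncr1 at 0 in all ATO libraries. Of the 14 tested, 10 fell with each drug. Of these 10, 8 were under 10 scaled reads in all 6 treated libraries and so entered the test only through the controls. Gzma, also among the 10, reached 10 scaled reads with treatment only in ATRA 3 (31.6). Gzma therefore likewise needed its controls to enter the test. Whether recipient T or NK cells remained in the GFP+ sort is not known, and the part of their transcripts in the Ms4a6b values was not tested.

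Ly86 fell with both drugs (chr13:37437214-37510905). It encodes MD-1, the secreted partner that holds the receptor Cd180 (RP105) at the cell surface, where the pair modulates responses through Toll-like receptors. Controls held 54.7, 57.9 and 71.0 scaled reads, ATRA libraries 3.83, 2.84 and 13.95, and ATO libraries 16.6, 6.53 and 13.1. All treated libraries lay well below all controls, and ATRA 3 was again the highest of its group. The fall was 10.3-fold with ATRA (log2 -3.37, SE 0.55, limma adjusted p = 0.00270) and 5.20-fold with ATO (log2 -2.38, SE 0.55, limma adjusted p = 0.0169). The ATRA call held in all 9 fits that left out 1 library. The ATO call was lost without control 3 (-2.27, limma adjusted p = 0.105) and without ATO 2 (-2.00, limma adjusted p = 0.0674).

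Mrc1 (chr2:14151041-14253684), the macrophage mannose receptor, which takes up mannosylated glycoproteins and microbes, fell with both drugs. Its scaled reads were 245, 199 and 398 in controls, 87.2, 119 and 97.7 after ATRA, and 99.9, 106 and 62.4 after ATO. No treated library reached the lowest control, and ATRA 3 lay between the other ATRA libraries. The fall was 2.67-fold with ATRA (log2 -1.41, SE 0.30, limma adjusted p = 0.0133) and 3.08-fold with ATO (log2 -1.62, SE 0.30, limma adjusted p = 0.00544). The ATO call held in all 9 fits that left out 1 library, and the ATRA call was lost without control 3 (-1.13, limma adjusted p = 0.123) and without ATRA 1 (-1.31, limma adjusted p = 0.0646). Complement C1q and tissue macrophage genes moved in the same direction. Summed over 18 genes they stood at 18611 to 36858 scaled reads in controls, 6316 to 8060 after ATRA and 7460 to 10920 after ATO, and 11 of the 15 tested fell with each drug. The sets differed, as Hmox1 and Fabp5 passed only with ATRA, and Axl and Trem2 only with ATO. Fabp4, called with both drugs, was under 10 scaled reads in every treated library and so entered the test only through the controls. Of the other 14 tested, 10 fell with each drug. Timd4 was at 0 in all ATO libraries. Their part in the Mrc1 values was not tested.

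The members did not move as a block from library to library. ATRA 3 exceeded the mean of ATRA 1 and ATRA 2 by 8.54-fold in Ms4a6b, 5.12-fold in Fcgr1, 4.18-fold in Ly86, 3.99-fold in Ms4a6c and 2.14-fold in F13a1. In Ly6c2 and Mpeg1 the ratio was 1.74 and 1.47, and in Mrc1 and Fn1 it was 0.946 and 0.361. The part of the interferon-induced genes of ATRA 3 in these values was not tested. The names of both deposited tables carry a tag that can be read as control 2 and ATRA 3, and its meaning is not given in the sources used here; all libraries were kept in the reported fit. Control 2 held the lowest control value of Ly6c2, Fcgr1, Mpeg1, F13a1, Fn1 and Mrc1. It was also the highest control for each listed gene of neutrophil specific and gelatinase granules. Among these, Ltf was at 24195 scaled reads in control 2, against 2109 and 2330 in controls 1 and 3. In ATRA 3 Ltf was at 1381, against 10511 and 10331 in ATRA 1 and ATRA 2. The part of such differences in the values of the members was not tested. Without ATRA 3, the count of members lower with ATRA was 6 instead of 3, adding F13a1, Ms4a6c and Ms4a6b. Without control 2 it was 5, and without control 3 or without ATRA 1 it was 1, that is, Ly86. With control 2 and ATRA 3 both left out it was 7 of the 8 members then tested. The ATO count was 3 without control 3 and 5 to 7 in the other 8 such fits. Over all tested genes, 464 of 12072 were called lower with ATRA without ATRA 3, and 420 of 11844 without control 2. The numbers were 345 of 12046 without ATRA 1 and 487 of 11788 with control 2 and ATRA 3 both left out. Without control 3 fewer genes were called in all, with 141 lower with ATRA and 163 with ATO, against 516 and 1035 with every library.

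**Figure D3:**
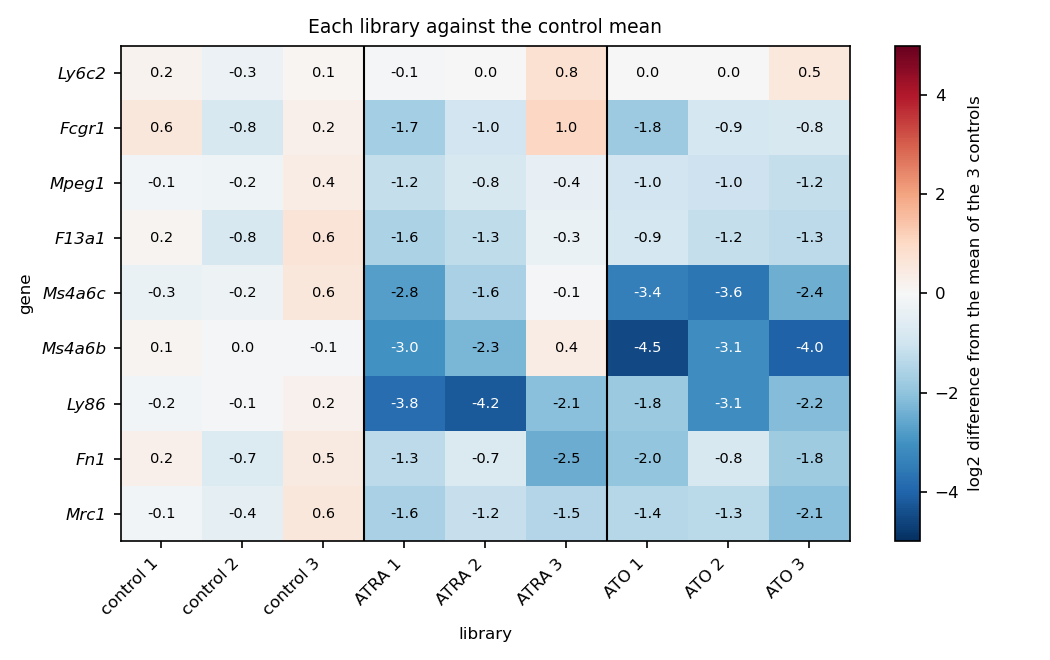
Log2 difference of each library (columns) from the mean of the 3 controls, for each gene (rows), with 0.5 added to scaled reads; blue is lower and red is higher. ATRA 3 is at 0.4 in Ms4a6b and 1.0 in Fcgr1, where ATRA 1 and ATRA 2 are between -3.0 and -1.0, and at -2.5 in Fn1.

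**Figure D4:**
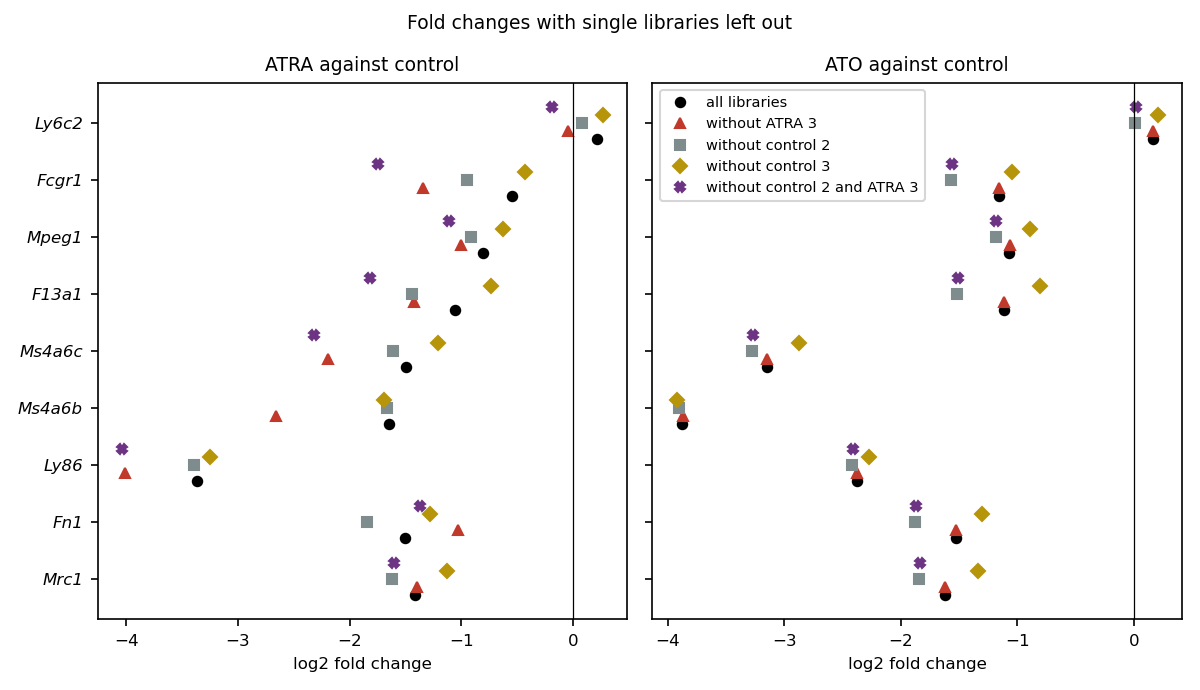
Log2 fold change of each gene against controls with all libraries and with the named libraries left out. Without ATRA 3 the ATRA values of Fcgr1, F13a1, Ms4a6c, Ms4a6b and Ly86 lie further below 0 and that of Fn1 lies closer to 0; Ms4a6b did not pass the filter once control 2 and ATRA 3 were both left out.

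In the direct comparison of ATO with ATRA, 0 of the 9 members and 0 of the 12101 tested genes were called by limma, so percent called was 0 in both directions. At an unadjusted p under 0.05, 764 genes passed, among them Ms4a6c and Ms4a6b, both lower with ATO. edgeR called 0 members and 0 genes, and DESeq2 called 0 members, with 50 genes higher and 22 lower. The log2 difference, ATO minus ATRA, was -1.65 (SE 0.54, limma adjusted p = 0.550) for Ms4a6c and -2.23 (SE 0.74, limma adjusted p = 0.553) for Ms4a6b. For Ms4a6b the 3 ATO libraries lay below the 3 ATRA libraries, as in 7.25% of tested genes, and 7.87% of tested genes showed the reverse. For Ly86 the difference was 0.99 (SE 0.55), with an interval of -0.19 to 2.17. For the other 6 members it ran from -0.61 (Fcgr1) to -0.02 (Fn1). A different number of calls with the 2 drugs is therefore not a tested difference between them.

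Families and partners of the members were described from lists chosen with earlier results of these data known. Of 5 tested Ms4a genes beside the members, Ms4a6d and Ms4a7 fell with ATO and 0 passed with ATRA. Ms4a6d held 183, 174 and 282 scaled reads in controls, 53.7, 101 and 242 after ATRA, and 30.2, 52.2 and 68.9 after ATO. Its ATO libraries lay below all controls (log2 -2.11, limma adjusted p = 0.0145), and ATRA 3 again lay within the control range. Ms4a7 changed by -2.26 on the log2 scale with ATO (limma adjusted p = 0.0290), and by -2.07 with ATRA (limma adjusted p = 0.0680).

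Among 7 Toll-like receptors and their partners, Cd180, Tlr7 and Tlr9 fell with both drugs and Cd14 rose with ATO. Cd180, the receptor that Ly86 protein binds, held 48.9, 74.2 and 49.4 scaled reads in controls, 7.67, 13.2 and 13.02 after ATRA, and 6.24, 7.98 and 1.64 after ATO. All treated libraries lay below all controls, at log2 -2.31 with ATRA (limma adjusted p = 0.0201) and -3.52 with ATO (limma adjusted p = 0.00157). Among the treated libraries only those at 13.2 and 13.02 reached the minimum of the filter, so Cd180 needed its controls to enter the test. Tlr7 and Tlr9, endosomal receptors for RNA and DNA, changed by -1.19 and -2.41 on the log2 scale with ATRA and by -1.73 and -2.41 with ATO, and Tlr9 entered the test only through the controls. Cd14, the lipopolysaccharide co-receptor, rose by 0.72 on the log2 scale with ATO (limma adjusted p = 0.0426), a call lost in 12 of 27 alternatives.

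The relatives of the members whose groups overlapped did not pass either. Of 4 tested Ly6 family genes and of 5 Fc receptor genes, limma called 0 with either drug. Fcgr3, a low-affinity IgG receptor, changed by -0.21 with ATRA and by 0.00 with ATO, and the inhibitory Fcgr2b by -0.11 and 0.22, all on the log2 scale. Ly6e and Ly6k changed by 0.61 and 0.94 with ATRA and by 0.26 and 0.79 with ATO. The remaining tested genes of these lists, added after their values were seen, were mostly lower without passing. With ATRA, Fcgr4, Fcgrt and Fcer1g changed by -1.28, -0.42 and -0.31, and with ATO by -1.26, -0.94 and -0.08. Ly6c1 and Ly6a changed by -0.47 and 0.15 with ATRA and by -0.54 and -1.56 with ATO. 

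Of 6 transglutaminases and coagulation factors, only Tgm2, tissue transglutaminase, fell with ATRA (log2 -1.56, limma adjusted p = 0.00533). With ATO, Tgm2 and F5 fell, by -1.54 and -1.20, whereas Tgm1, Tgm3 and F10 rose, so the list did not share a single direction with F13a1; the Tgm1 call was lost in 13 of 27 alternatives. Tgm3 was below 6 scaled reads in each control and at 41.0 to 58.8 with ATO (log2 3.37, limma adjusted p = 0.000969). Of 8 integrin chains, Itgb3 fell with both drugs, by -1.76 with ATRA and -1.89 with ATO, and Itga4, a chain of a fibronectin receptor, fell with ATO (log2 -1.34, limma adjusted p = 0.00254).

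Of 8 mannose receptor relatives and macrophage lectin or scavenger receptors, Msr1 fell with both drugs, by -1.44 with ATRA and -1.55 with ATO; the ATRA call was lost in 10 of 27 alternatives. Cd163, Clec7a and Pla2r1 fell with ATO alone by the test, at -3.07, -1.44 and -0.94, where ATRA gave -1.70, -1.05 and -0.17. The Pla2r1 call was lost in 10 of 27 alternatives, that of Clec7a in 5 of 27 and that of Cd163 in 5 of 20. Cd163 was low throughout, at 10.7, 9.14 and 26.1 scaled reads in controls and 3.12, 2.18 and 0 after ATO. It passed the filter through control 1, control 3 and ATRA 3. Mgl2, a galactose-type lectin of macrophages and dendritic cells, rose with both, by 0.82 with ATRA (limma adjusted p = 0.00568) and 0.74 with ATO (limma adjusted p = 0.00985).

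Among 30 other monocyte genes, 9 fell and 0 rose with ATRA, and 13 fell and 1 rose with ATO, with medians of -0.65 and -0.83 on the log2 scale. Cd36, a scavenger receptor for lipids, fell most, from 309, 173 and 302 scaled reads in controls to 2.88, 6.62 and 8.37 after ATRA and 16.6, 2.90 and 4.92 after ATO. All treated libraries lay far below all controls (log2 -5.40 with ATRA and -5.21 with ATO). Among them only ATO 1 reached 10 scaled reads, so Cd36 could enter the test only through its controls. Ace and Ear2 also fell with both drugs, by -3.51 and -3.24 with ATRA and by -3.23 and -2.84 with ATO, but both were under 10 scaled reads in all 6 treated libraries and entered the test only through the controls. Ifi204, an interferon-inducible DNA sensor, fell with ATO (log2 -3.45, limma adjusted p = 0.0245). Its ATRA libraries held 1.92, 1.89 and 29.8 scaled reads, ATRA 3 standing above every control. No other treated library reached 10 scaled reads, so Ifi204 likewise needed its controls to enter the test. Adgre1, which encodes the macrophage antigen F4/80, was the gene that rose with ATO (log2 0.71, limma adjusted p = 0.0299), chosen for mention after its values were seen.

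Of 16 transcription factors of monocyte development, 6 fell and 0 rose with ATRA, and 6 fell and 1 rose with ATO. Maf, a factor of macrophage differentiation, changed by -2.43 and -2.09 on the log2 scale, Irf5 by -1.26 and -1.63, and Irf4 by -2.39 and -1.96, with ATRA and ATO in that order, and all 6 values passed, Irf4 having entered the test only through the controls. By the test, Bcl6 fell with both drugs, Klf4 with ATRA and Irf8 with ATO, whereas Klf2 rose with ATO. These 4 were named after their values were seen. Irf8 changed by -1.60 on the log2 scale with ATO and by -1.04 with ATRA (limma adjusted p = 0.0583). Klf4 changed by -1.08 with ATRA and by -0.69 with ATO (limma adjusted p = 0.0722). For Irf8 and Klf4 all treated libraries lay below all controls with both drugs.

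Lists of other myeloid stages and of other cell types were counted the same way. How many unlabelled recipient cells remained after the GFP+ sort is not known. Of 15 neutrophil specific and gelatinase granule genes, only Mmp8 fell with each drug, with the ATO call lost in 12 of 27 alternatives. Control 2 was the highest control for all 15, with Olfm4 at 33547 scaled reads against 2494 and 4892 in controls 1 and 3. With such a spread (SE 0.86 for Ltf) the test could miss changes in these genes. Of 9 genes listed as azurophil granule genes, 2 rose with ATRA (Nkg7 and Hdc) and 3 with ATO (Nkg7, Hdc and Elane). The Elane call was lost in 10 of 27 alternatives. Mpo, Prtn3 and Ctsg were not called with either drug. With each drug, limma called lower 5 of 7 genes of dendritic cells and MHC class II, 7 of 9 of basophils, eosinophils and mast cells, of which 2 were tested only through the controls, and 2 of 7 of the B lineage. Of 5 erythroid genes 1 fell with ATRA and 0 with ATO by limma. Of the 17 interferon-induced genes, limma called 0 with ATRA, and with ATO it called Cxcl10 higher and Mx1 and Oas2 lower. Mx1 likewise needed its controls, as among the treated libraries only ATRA 3 (25.1) reached the minimum of the filter.

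Over the 9 libraries, log2 levels of some members rose and fell together. Pearson's r, given as a description over 9 libraries that share treatments, was 0.93 for Ms4a6b with Ms4a6c, 0.93 for Mpeg1 with Mrc1 and 0.92 for Mpeg1 with F13a1. Ly6c2 followed the others least, at 0.63 with Fcgr1, 0.00 with Mpeg1 and -0.46 with Fn1. Of 9232 other genes with a mean of at least 100 scaled reads, those close to the mean profile of the members included Siglec1 (0.98), A630001G21Rik (0.97), Rasa4 (0.96) and Oas1c (0.96). Siglec1 averaged 280 scaled reads in controls, 38.7 after ATRA, and 20.0 after ATO. The gene closest to 8 of the members was Isg20 for Ly6c2, Arl5c for Fcgr1, Wdr41 for F13a1, Ms4a6d for Ms4a6c, Slfn5 for Ms4a6b, Lypd6b for Ly86, Zmym3 for Fn1 and Snrk for Mrc1, with r from 0.95 to 0.98.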

How the data were processed

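RNA from GFP+ APL cells was sequenced in 9 libraries, 3 per group, grouped by the labels. Per the study's methods, FastQC, cutadapt, STAR (to mm9) and HTSeq-count on unique reads gave counts per gene, which the authors compared with DESeq2. Their versions and annotation: not given in the sources used here. The processing notes also name hg19. The deposited values are normalized read counts (unit signal) in 2 tables scaled separately, with the same controls in both; columns of the authors' own comparisons (fold changes and p-values) were not used.

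Reads were recovered as multiples of a column's smallest step, with 100% of values whole within 0.001 read. The controls then had equal reads in both tables for 24364 genes. Another 27 entries whose names had become dates (at most 0.173% of reads) were left out. Reads were scaled by joint median-of-ratios size factors (0.609 to 1.378). In R 4.3.3, limma 3.58.1 with an intensity trend was applied to log2 values, with a pseudocount of 0.5, in a model of 3 groups, for 12101 genes with at least 10 scaled reads in at least 3 libraries. Fold changes are on this log2 scale, which understates changes of low genes. The fit was tested on simulated data.

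All 9 members were named. From each neighbouring list the called genes with the largest fold change in either comparison, up to 4, were named, or else the 2 with the highest mean; marker lists followed the same rule with up to 3. A few genes that the rule names are not reported here. Members and lists were chosen with earlier results of these data known. Alternatives covered the pseudocount, filter, scaling, thresholds, length and GC trends, edgeR 4.0.16 and DESeq2 1.42.0 on recovered reads, and leaving out libraries. Coordinates are from GENCODE vM1 on mm9.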

Additional observations from a re-analysis of the deposited data

How the results depend on the processing

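Of the 710 values of single members under alternatives, 632 kept direction and side of the threshold, 37 lost the call, 19 gained it and 22 changed sign, none of these called. The count of members lower with ATRA (3) was 1 with a mean of at least 50, 7 with unadjusted p, 7 with control 2 and ATRA 3 both left out, and 1 to 6 with 1 library left out. The count with ATO (7) was 4 with a mean of at least 50, where 7 members were tested, 4 with length and GC trends removed, where Mpeg1, F13a1 and Fn1 were lost, and 3 to 7 with 1 library left out. For ATO against ATRA (0) it was 2 with unadjusted p.

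Ly6c2 turned to -0.19 with ATRA with control 2 and ATRA 3 both left out, and with ATO to -0.038 with scaling to total reads and -0.082 with the trends removed. In ATO minus ATRA, with control 2 and ATRA 3 both left out, Ly6c2 was 0.20, Fcgr1 0.18 and F13a1 0.30, and with the trends removed F13a1 was 0.057 and Fn1 0.069. Leaving out 1 library gave ranges that crossed 0 for Ly6c2 (-0.048 to 0.39 with ATRA, -0.0085 to 0.26 with ATO, -0.23 to 0.21 between drugs), Fcgr1 (-1.34 to 0.033 with ATRA, -1.19 to 0.18 between drugs) and, between drugs, F13a1 (-0.32 to 0.31), Fn1 (-0.50 to 0.37) and Mrc1 (-0.34 to 0.037). Apart from fewer genes tested or fewer libraries, the cause was not tested. Scaling to total reads moved the all-gene median to -0.21 with ATO and removing the trends moved it to 0.13 and 0.12; genes called higher and lower were then 294 and 1373 with ATO, and 469 and 561 with ATRA and 992 and 724 with ATO, against 162 and 516 with ATRA and 742 and 1035 with ATO. Over all genes, ATRA gave 902 lower with no filter, 79 higher and 185 lower with a mean of at least 50, 255 higher with DESeq2, and 552 and 1102 with unadjusted p. ATO gave 555 lower with a mean of at least 50, 358 higher with the deposited values of each table, 352 higher with only the 2 groups fitted, and 1165 and 1944 with unadjusted p. With 1 library left out, genes called lower ranged from 141 to 572 with ATRA and from 163 to 1546 with ATO.

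Deviations of same-numbered libraries correlated over 0.1 in 5 of 9 pairs, including all 3 between ATRA and ATO, and from -0.38 to 0.33 overall; since not every pair passed 0.1, the numbers were not taken to pair the samples. With a replicate block 4 members were lower with ATRA, adding Ms4a6c, 7 with ATO, and 0 in ATO against ATRA. Depth limits Ms4a6b, with 1 to 5 reads per ATO library.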
